A study of Rattus norvegicus with 6 samples.

Results

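The 97 rows of the deposited table whose symbols begin with Nduf, with Sdh and a letter from a to d, with Uqcr, with Atp5, or with Cox, a digit from 4 to 8 and a letter were taken as the nuclear genes of oxidative phosphorylation, out of 18420 genes in all. They were 44 genes of complex I, 8 of complex II, 8 of complex III, 20 of complex IV and 17 of complex V. Ndufa4 and Ndufa4l2 carry names of complex I and were placed in complex IV, to which the Ndufa4 protein belongs. The 97 genes included 12 assembly factors (8 Ndufaf and 4 Sdhaf genes), the supercomplex factor Cox7a2l, the ATP synthase inhibitor Atp5if1, the associated factor Atp5s and 2 gene copies, Ndufa10l1 and Cox7a2l2. RNA was measured by RNA-seq in 6 libraries of primary chondrocytes, the cells of cartilage, from wild-type male Sprague-Dawley rats of 180–220 g, used at the third passage. The TNF-α group (n = 3) received TNF-α, an inflammatory cytokine, at 10 ng/mL for 6 h. The TNF-α+NFL group (n = 3) received the same and then NFL, a lysate made by repeated freezing and thawing of Nanofat, for a further 24 h. The cells of both groups were of the same passage and both groups had TNF-α, the NC group was not analysed here, and the labels give harvest times of 6 h and 30 h, so NFL and time in culture cannot be told apart. Every direction follows the labels of the libraries. The study's supplementary gene table, in which each of these groups is set against NC, orders them the opposite way. Which is right could not be settled here, and every sign below would turn if the labels were exchanged.

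The respiratory chain of the inner mitochondrial membrane moves electrons from NADH (complex I) and succinate (complex II) through ubiquinol and cytochrome c (complex III) to oxygen (complex IV), and ATP synthase (complex V) uses the proton gradient that this builds. Most subunits are encoded in the nucleus and a small core in mitochondrial DNA, so each complex except complex II joins products of both genomes, with the help of assembly factors that are not part of the finished enzyme. Cartilage has no blood vessels and chondrocytes live at low oxygen, and they are known for relying largely on glycolysis.

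Short promoter windows, from 250 bases before to 50 bases after the start of the gene, are shown for 4 members. Ndufa4l2 is shown because it was the 1 member past the adjusted threshold. Ndufs7 and Ndufs1, core subunits of complex I, and Uqcrc1, a core subunit of complex III, are shown because their windows hold letters known as binding motifs of factors that act on nuclear mitochondrial genes. The windows are RefSeq sequence of the rat assembly GRCr8, which is not the build of the deposited files. Ndufa4l2 lies at chr7:65241919-65242218 on the plus strand, Ndufs7 at chr7:10110449-10110748 on the minus strand, Ndufs1 at chr9:72073556-72073855 on the minus strand and Uqcrc1 at chr8:118467973-118468272 on the plus strand. Capitals mark AAGATGGCG (the YY1 motif) in Ndufs7 and Uqcrc1, ACTTCCGG (the ETS motif of GABP) in Ndufs1, and the reverse complement of GCATGCGC (the NRF1 motif) in Uqcrc1. No searched motif is in the window of Ndufa4l2.
Ndufa4l2: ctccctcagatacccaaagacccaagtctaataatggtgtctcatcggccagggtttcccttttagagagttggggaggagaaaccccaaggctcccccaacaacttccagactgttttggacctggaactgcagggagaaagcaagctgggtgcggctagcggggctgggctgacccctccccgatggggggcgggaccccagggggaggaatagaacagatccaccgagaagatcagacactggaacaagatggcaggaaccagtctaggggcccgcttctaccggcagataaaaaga
Ndufs7: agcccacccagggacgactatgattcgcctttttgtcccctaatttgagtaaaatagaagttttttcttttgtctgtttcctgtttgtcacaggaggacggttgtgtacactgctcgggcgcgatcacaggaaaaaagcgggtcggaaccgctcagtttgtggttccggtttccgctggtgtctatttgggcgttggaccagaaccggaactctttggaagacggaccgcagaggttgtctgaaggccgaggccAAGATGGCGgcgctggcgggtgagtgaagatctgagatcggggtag
Ndufs1: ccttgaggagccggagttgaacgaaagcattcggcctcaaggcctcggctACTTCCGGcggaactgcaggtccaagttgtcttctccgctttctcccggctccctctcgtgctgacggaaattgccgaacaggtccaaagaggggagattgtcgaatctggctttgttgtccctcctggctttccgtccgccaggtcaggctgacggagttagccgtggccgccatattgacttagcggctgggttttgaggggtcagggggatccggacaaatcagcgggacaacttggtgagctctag
Uqcrc1: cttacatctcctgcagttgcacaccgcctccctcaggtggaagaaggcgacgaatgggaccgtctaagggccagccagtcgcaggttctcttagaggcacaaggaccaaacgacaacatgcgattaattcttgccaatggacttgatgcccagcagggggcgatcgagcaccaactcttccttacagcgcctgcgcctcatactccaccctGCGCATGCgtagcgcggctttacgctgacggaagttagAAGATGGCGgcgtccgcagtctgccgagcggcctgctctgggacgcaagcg

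Such windows were found for 85 of the 97 members, and Cox4i2, Ndufa8 and Cox6a1 were among those without one. On either strand, the YY1 motif was in the windows of 10 members (11.8% of 85), against 3.68% of the 10316 windows of tested genes outside the members and 1.93% of all 27457 windows. The NRF1 motif was in 11 members (12.9%), against 5.09% of the tested genes outside the members and 2.66% of all windows. Ndufa6 and Uqcrc1 held both. The GABP motif was in 8 members (9.41%), close to the 8.27% of the tested genes outside the members, and in 4.01% of all windows. TCAAGGTCA, the motif of the estrogen-related receptors, was in 2 members, Sdhd and Atp5mc3 (2.35%), against 0.213% and 0.412%. ACGTG, the core of the hypoxia response element, was searched after the values of Ndufa4l2 and Cox4i2 had been seen. It was in 24 members (28.2%), against 25.7% of the tested genes outside the members and 19.7% of all windows. The searched motifs share no stretch that would make one match count as another, and a match describes letters, not a bound site.

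The libraries held 19344893 to 19725135 estimated counts. Of these, the members took 0.673%, 0.759% and 0.760% in TNF-α replicates 1 to 3 and 0.692%, 0.678% and 0.692% in TNF-α+NFL replicates 1 to 3, so TNF-α replicate 1 lay below every other library and the other 2 TNF-α replicates lay above them. Of 10 chondrocyte markers, 9 passed the filter on low counts, with a summed level of 3496 to 4249 CPM (counts scaled to library size with TMM factors) in which Prg4 and Col11a1 had the largest part, and Matn1 was at or near 0. Summed marker levels were at most 5.61 CPM for muscle, 10.1 CPM for adipocytes and 28.2 CPM for macrophages, and at most 0.490 CPM for endothelium and 0.101 CPM for blood. The chondrocyte markers summed to 4249, 3843 and 3496 CPM in the TNF-α replicates and 3790, 3954 and 4071 CPM in the TNF-α+NFL replicates, so the groups overlapped in this sum. Gene by gene, 6 of the 9 tested markers had a log2 fold change above 0 and 3 below, where 51.8% of all tested genes were below 0. Their median was 0.076, and 0.049 with the trend with transcript length removed, described below (median length 4072 bases). At an unadjusted p under 0.05 Col2a1 and Col11a1 were higher in the TNF-α+NFL libraries, where 5.66% of all tested genes were. At that p 0 markers were lower, where 5.45% of all tested genes were, and none passed adjustment. The part of this in the members' levels was not tested. In bulk RNA, fewer cells of a type and less RNA per cell cannot be told apart.

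The nuclear genes of every complex were expressed, and subunits of complexes IV and V had the highest levels per transcript length. In FPKM (fragments scaled to transcript length and library size, mean of the 6 libraries), the median over the tested subunits was 62.7 for complex I, 56.8 for complex II, 83.8 for complex III, 162 for complex IV and 202 for complex V. Cox6a1, the form of subunit VIa found outside muscle, had the highest level at 423 FPKM, followed by Atp5f1b, the catalytic β subunit of ATP synthase, at 393 FPKM. In complex I, Ndufb4 was the highest at 248 FPKM and Ndufs4 the lowest subunit at 27.6 FPKM. Levels within complex III ran from 57.8 FPKM for Uqcrb to 208 FPKM for Uqcrq, and those of the 4 complex II subunits from 42.96 FPKM for Sdhd to 82.1 FPKM for Sdhc. The assembly factors were far lower, with a median of 9.11 FPKM, from 2.23 FPKM for Ndufaf6 to 103 FPKM for Sdhaf1. Atp5s, an ATP synthase associated factor, was at 2.81 FPKM.

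**Figure D1:**
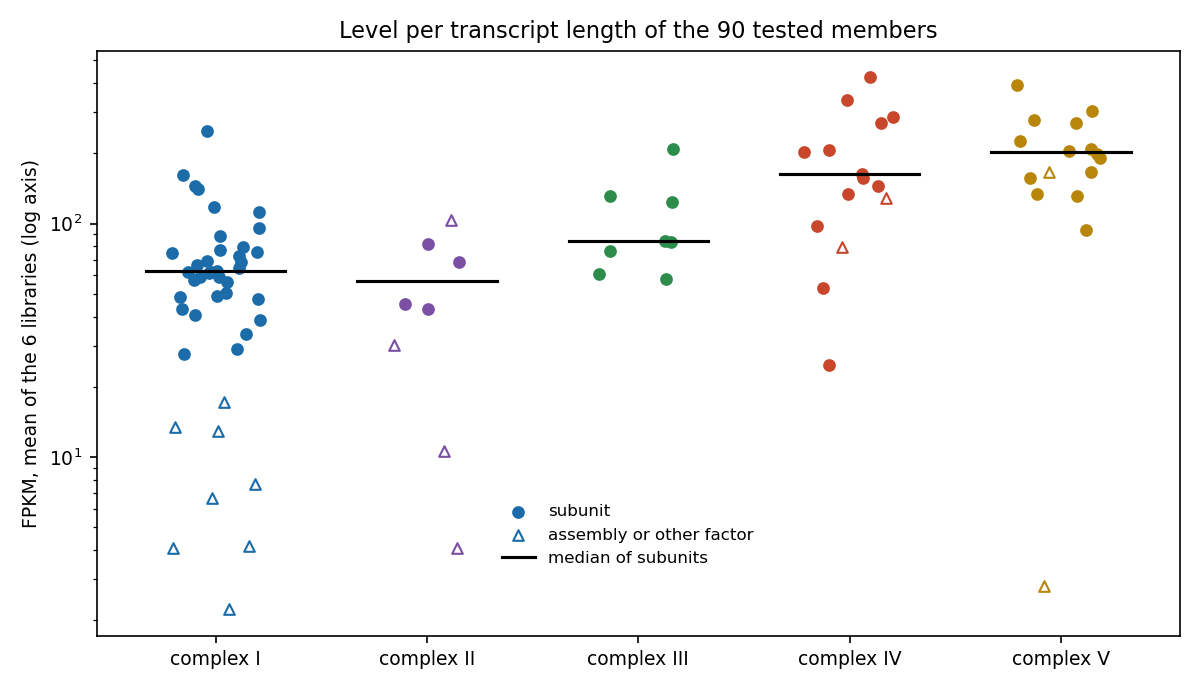
Level of each of the 90 tested members, as the mean FPKM of the 6 libraries on a log axis, by complex. Filled points are subunits, open triangles are assembly and other factors or copies, and lines mark the subunit medians, which run from 56.8 FPKM in complex II to 202 FPKM in complex V.

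Of the paired isoforms of complex IV, the forms known from muscle or testis were near 0, and the form expressed in most tissues gave nearly all of the RNA. Cox6a2 was at 0.878 FPKM beside 423 for Cox6a1, Cox6b2 at 0.327 beside 269.9 for Cox6b1, and Cox7a1 at 0.257 beside 53.1 for Cox7a2. The identifier of Cox7a1 had no match in RefSeq and its estimated counts were fractional in all 6 libraries, so its level is uncertain. Cox8b was listed at 0 in all 6 libraries beside 287 FPKM for Cox8a. The pairs linked to oxygen supply differed from this. Ndufa4l2, a paralog of Ndufa4 known as a target of hypoxia-inducible factor, was at 134 FPKM beside 97.7 FPKM for Ndufa4, and made up 55.8% to 60.9% of the FPKM of the pair in a library. Cox4i2, the form of subunit IV known to be favoured at low oxygen, was at 24.8 FPKM beside 338 FPKM for Cox4i1, and made up 6.00% to 7.51% of that pair.

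Of the 97 members, 90 passed the filter on low counts. The other 7 were Cox6a2, Cox6b2, Cox7a1, Cox8b, Cox8c, Ndufa10l1 and Atp5f1. Cox8b and Cox8c were listed at 0 in every library, and Cox6a2, Cox6b2, Cox7a1 and Ndufa10l1 stayed below 0.54 CPM. Atp5f1, the gene of ATP synthase subunit b (Atp5pb in RefSeq), was listed at 0 in 5 libraries and at 11.9 CPM in TNF-α+NFL replicate 3, and no change was drawn from it. Fractional estimated counts, which arise where reads are shared between genes or copies, were found in at least 1 library for 22 members and in all 6 for 9, among them Ndufa2, Ndufa1, Cox7a2 and Uqcrc2, and the values of these genes are uncertain to that extent.

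To ask whether NFL treatment went with another level of these genes, the 2 groups were compared over all 13250 genes that passed the filter. In the libraries labelled TNF-α+NFL, nearly all members had slightly lower fitted levels, and 1 of them passed the test. By the quasi-likelihood test of edgeR with Benjamini-Hochberg adjustment over all tested genes, 1 of 90 members was lower at an adjusted p below 0.05, Ndufa4l2, where 0.204% of all tested genes were, and no member was higher, where 0.408% were. At an unadjusted p under 0.05, 23 members were lower, where 5.45% of all tested genes were, and 0 were higher, where 5.66% were. The fitted log2 fold change was below 0 for 86 of 90 members, where 51.8% of all tested genes were below 0. The TNF-α+NFL libraries all lay below the TNF-α libraries for 18 members, where 8.17% of all tested genes did so, and all lay above them for no member, where 8.66% did so.

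The median log2 fold change of the members was -0.089, against -0.0035 over all tested genes, and it was below 0 in each complex. It was -0.087 in complex I (43 genes), -0.051 in complex II (8), -0.094 in complex III (8), -0.11 in complex IV (15) and -0.094 in complex V (16), and -0.022 over the 12 assembly factors of complexes I and II. The complex III median turned to 0.00998 with the trend with transcript length removed, described below, and was -0.025 without TNF-α replicate 3. Members share each library's depth and scaling, so these medians are descriptions without a test. The CPM of all 97 members summed to 6819, 7556 and 7575 in TNF-α replicates 1 to 3 and to 6902, 6791 and 6917 in TNF-α+NFL replicates 1 to 3. The group means differed by -6.11%, and by -9.19% when TNF-α replicate 1 was left out, and TNF-α replicate 1 lay within the range of the TNF-α+NFL libraries.

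**Figure D2:**
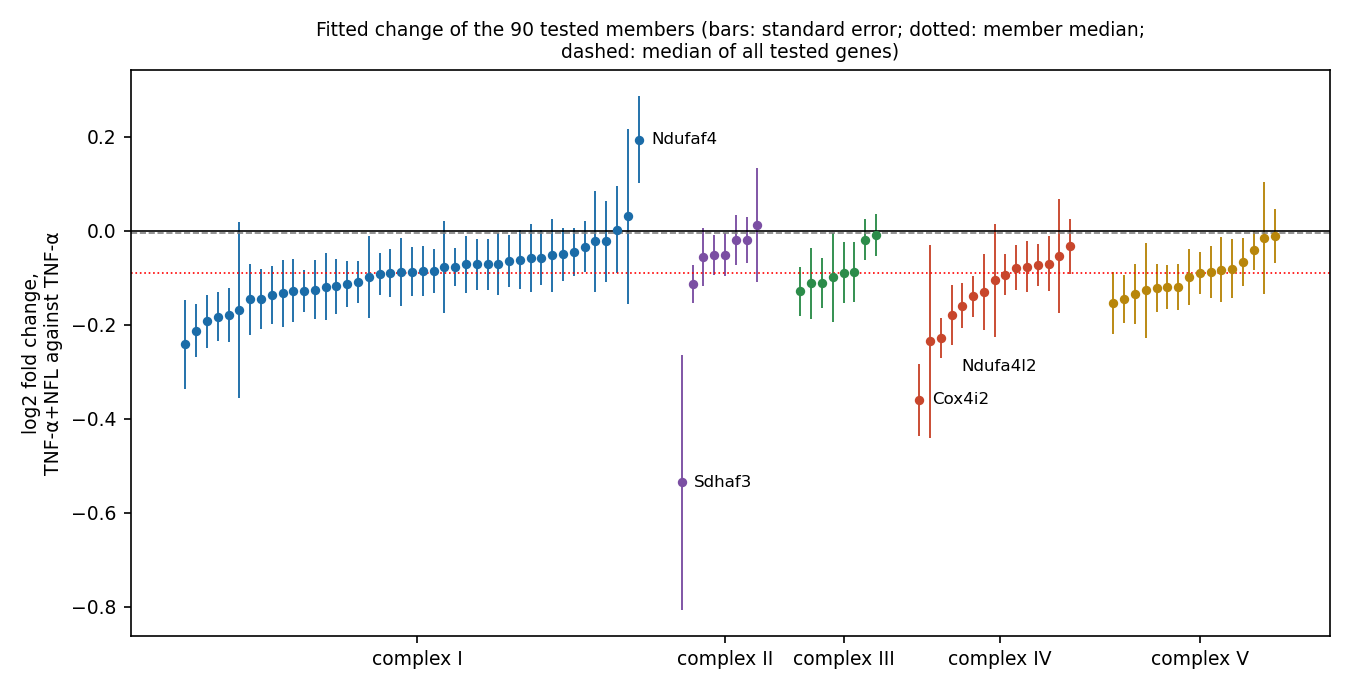
Fitted log2 fold change of the 90 tested members (TNF-α+NFL against TNF-α, bars are standard errors), ordered within each complex. The dotted line is the member median of -0.089 and the dashed line the median of all tested genes, and 86 of the 90 points lie below 0.

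Complex IV, cytochrome c oxidase, had both members with the smallest p, and both were the alternative isoforms linked to low oxygen. Ndufa4l2 (Entrez gene 100362331) had 134, 132 and 135 CPM in TNF-α replicates 1 to 3 and 116, 109 and 117 CPM in TNF-α+NFL replicates 1 to 3. The TNF-α replicates lay close together and above all TNF-α+NFL replicates, and TNF-α replicate 1 did not stand apart for this gene. The means were 133 ± 1.74 (SD, n = 3) and 114 ± 4.67 (SD, n = 3), a difference of -14.6%, with a log2 fold change of -0.23 (standard error, SE, 0.042, edgeR adjusted p = 0.030). The call was lost in 5 of the 6 fits that left out 1 library and held without TNF-α replicate 1, with adjusted p from 0.0012 to 0.24 over all alternatives, and its log2 fold change stayed between -0.25 and -0.19 when a library was left out. Cox4i2 had 17.4, 20.2 and 19.7 CPM in the TNF-α replicates and 15.7, 14.5 and 14.4 CPM in the TNF-α+NFL replicates, so the groups did not overlap. Its log2 fold change of -0.36 (standard error 0.077) did not pass, with an edgeR adjusted p of 0.060, and the adjusted p ran from 0.0017 to 0.33 over the alternatives. The exact permutation p of both genes was 0.10 (two-sided), the smallest that 3 libraries against 3 allow.

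Their partners in the pairs did not pass the test. Cox4i1, the common form of subunit IV, had 224, 246 and 245 CPM in the TNF-α replicates and 218, 211 and 220.4 CPM in the TNF-α+NFL replicates, again without overlap, and a log2 fold change of -0.14 (edgeR adjusted p = 0.22). Ndufa4 had 70.9, 80.9 and 77.7 CPM in the TNF-α replicates and 70.7, 71.1 and 75.96 CPM in the TNF-α+NFL replicates, with overlap between the groups and a log2 fold change of -0.076. Thus the share of Cox4i2 in its pair was 7.08%, 7.51% and 7.34% in the TNF-α replicates and 6.62%, 6.32% and 6.00% in the TNF-α+NFL replicates, all lower, while the share of Ndufa4l2 was 60.9%, 57.3% and 58.9% against 57.5%, 55.8% and 56.0%, which overlapped. No other subunit of complex IV passed. Cox6a1 had 215, 245 and 239 CPM in the TNF-α replicates and 209, 204 and 213 CPM in the TNF-α+NFL replicates and a log2 fold change of -0.16, and Cox5b, a zinc-binding subunit on the matrix side, had 68.7, 82.8 and 77.1 CPM in the TNF-α replicates and 64.2, 68.01 and 69.9 CPM in the TNF-α+NFL replicates and a log2 fold change of -0.18. Cox5a, Cox8a, Cox6b1 and Cox7a2 had log2 fold changes of -0.033, -0.078, -0.073 and -0.23, the last with a standard error of 0.21.

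**Figure D3:**
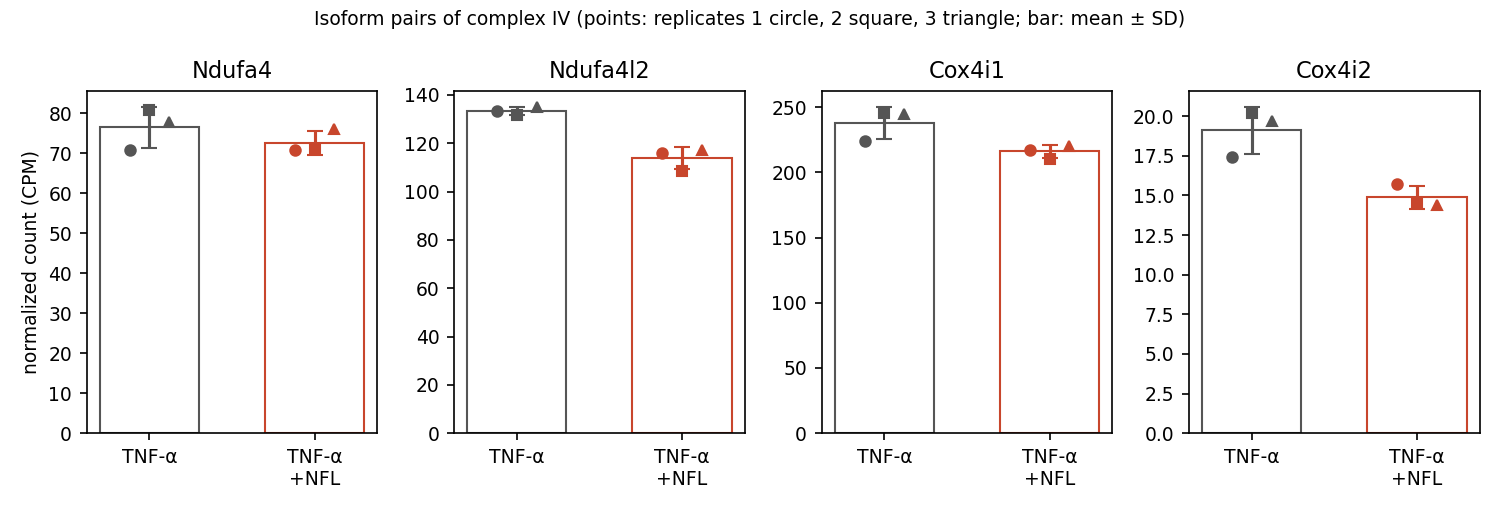
Normalized counts (CPM) of the isoform pairs Ndufa4 and Ndufa4l2, and Cox4i1 and Cox4i2, in each library, with the group mean (bar) and SD. The groups do not overlap for Ndufa4l2, Cox4i1 and Cox4i2, and overlap for Ndufa4.

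Complex I, the NADH dehydrogenase, held 10 of the 23 members with an unadjusted p under 0.05, none past adjustment. These were 10 of its 43 tested genes, beside 6 of 15 in complex IV and 5 of 16 in complex V. At that p, 5.45% of all tested genes were lower. Ndufa2, an accessory subunit of the arm that binds NADH, had 33.03, 35.8 and 36.4 CPM in TNF-α replicates 1 to 3 and 30.6, 29.2 and 31.1 CPM in TNF-α+NFL replicates 1 to 3. Ndufa8, an accessory subunit of the intermembrane side, had 50.7, 57.7 and 55.4 CPM in the TNF-α replicates and 49.6, 47.9 and 45.8 CPM in the TNF-α+NFL replicates. Ndufs7, which carries the last iron-sulfur cluster before ubiquinone, had 35.1, 37.1 and 36.9 CPM in the TNF-α replicates and 32.3, 32.6 and 31.2 CPM in the TNF-α+NFL replicates. The groups did not overlap in these 3 genes, whose log2 fold changes were -0.21 (standard error 0.057), -0.19 (0.056) and -0.18 (0.052), with edgeR adjusted p of 0.15, 0.19 and 0.18. Among the other core subunits, Ndufs1, the large iron-sulfur subunit, had 71.9, 75.8 and 77.1 CPM in the TNF-α replicates and 69.4, 70.4 and 68.6 CPM in the TNF-α+NFL replicates and a log2 fold change of -0.11, without overlap. Ndufs8 also did not overlap between groups, at a log2 fold change of -0.090. Ndufv1, which binds NADH and FMN, Ndufv2 and Ndufs3 overlapped, at -0.091, -0.088 and -0.034. All 35 tested subunits of complex I had a log2 fold change below 0, where 51.8% of all tested genes did, and 10 had an unadjusted p under 0.05. With the trend with transcript length removed, described below, 25 of the 35 were below 0.

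Of the 12 assembly factors of complexes I and II, 8 had a log2 fold change below 0 and 4 above, where 51.8% of all tested genes were below 0. All 74 tested subunits of the 5 complexes were below 0, a difference that was not tested. The assembly factors had longer transcripts, with a median of 1044 bases against 608 bases for the subunits, and with the length trend removed 6 of 12 assembly factors and 46 of 74 subunits were below 0. The member with the largest value above 0 was Ndufaf4, an assembly factor of complex I, with 14.4, 12.7 and 11.5 CPM in the TNF-α replicates and 13.5, 15.4 and 15.2 CPM in the TNF-α+NFL replicates. Its groups overlapped, and its log2 fold change was 0.19 (SE 0.093, edgeR adjusted p = 0.47). Ndufaf6, Sdhaf4 and Ndufaf1 were the other 3 above 0, at 0.031, 0.013 and 0.0028, each less than its standard error. Sdhaf1, which helps to place iron-sulfur clusters in Sdhb, had 99.5, 100.1 and 99.6 CPM in the TNF-α replicates and 91.4, 94.6 and 90.8 CPM in the TNF-α+NFL replicates, without overlap, and a log2 fold change of -0.11 (edgeR adjusted p = 0.29). Sdhaf3 had the value farthest below 0, -0.54, at a level of 1.36, 1.32 and 1.77 CPM in the TNF-α replicates and 1.38, 0.717 and 0.967 CPM in the TNF-α+NFL replicates and a standard error of 0.27.

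Complex II, which is also the succinate dehydrogenase of the citric acid cycle, had the median nearest to 0. Sdha, the flavoprotein that oxidises succinate, had 104, 103 and 109 CPM in the TNF-α replicates and 101, 105 and 98.8 CPM in the TNF-α+NFL replicates and a log2 fold change of -0.052. Sdhb, the iron-sulfur subunit, and the membrane anchors Sdhc and Sdhd had -0.056, -0.020 and -0.050, each with overlapping groups. In complex III, all 8 subunits were below 0, where 51.8% of all tested genes were, and 3 of 8 were with the length trend removed. An unadjusted p under 0.05 was found for 1, where 5.45% of all tested genes were lower at that p. That was Uqcrc1, a core subunit, with 117, 129 and 128 CPM in the TNF-α replicates and 109.99, 111 and 121 CPM in the TNF-α+NFL replicates and a log2 fold change of -0.13 (edgeR adjusted p = 0.36). Its partner Uqcrc2 and the Rieske iron-sulfur protein Uqcrfs1 had -0.0082 and -0.019, each smaller than its standard error.

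In complex V, all 16 tested members were below 0, where 51.8% of all tested genes were, and 8 of 16 were with the length trend removed. None passed the adjusted test. Atp5f1b had 666, 732 and 701 CPM in TNF-α replicates 1 to 3 and 688, 669 and 683 CPM in TNF-α+NFL replicates 1 to 3, which overlapped, and a log2 fold change of -0.041 (standard error 0.041). Atp5f1a, the α subunit, had 363, 394 and 407 CPM in the TNF-α replicates and 362, 366 and 366 CPM in the TNF-α+NFL replicates and a log2 fold change of -0.090 (standard error 0.044). In both genes replicate 1 was the lowest of the TNF-α libraries, and for Atp5f1a it lay among the TNF-α+NFL libraries. Atp5f1c, the γ subunit that turns in the enzyme's head, had -0.011, and Atp5if1, the inhibitor that blocks ATP hydrolysis, had -0.088. Of the 16 complex V members, 1, Atp5mf, had groups without overlap, where 8.17% of all tested genes were lower without overlap. It had 109.9, 127 and 115 CPM in the TNF-α replicates and 105, 107 and 107 CPM in the TNF-α+NFL replicates.

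The lower member levels rested on 2 of the 3 TNF-α libraries. TNF-α replicate 1 was lower than both other TNF-α replicates for 81 of the 90 tested members, where 37.8% of all tested genes had that order. The TNF-α+NFL libraries all lay below TNF-α replicates 2 and 3 for 67 members, where 18.4% of all tested genes did so. As a median over the members, the log2 deviation from each gene's mean over the 6 libraries was -0.060, 0.091 and 0.11 in the TNF-α replicates and -0.039, -0.065 and -0.047 in the TNF-α+NFL replicates. TNF-α replicate 1 was thus on the side of the TNF-α+NFL libraries, and in complexes I and V it was the lowest library of all, at -0.060 and -0.087. The medians of the complexes varied together over the 6 libraries, with Pearson correlations of their medians from 0.855 to 0.973 and Spearman correlations from 0.371 to 0.943 over 10 pairs, which share library and depth and are given as a description.

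**Figure D4:**
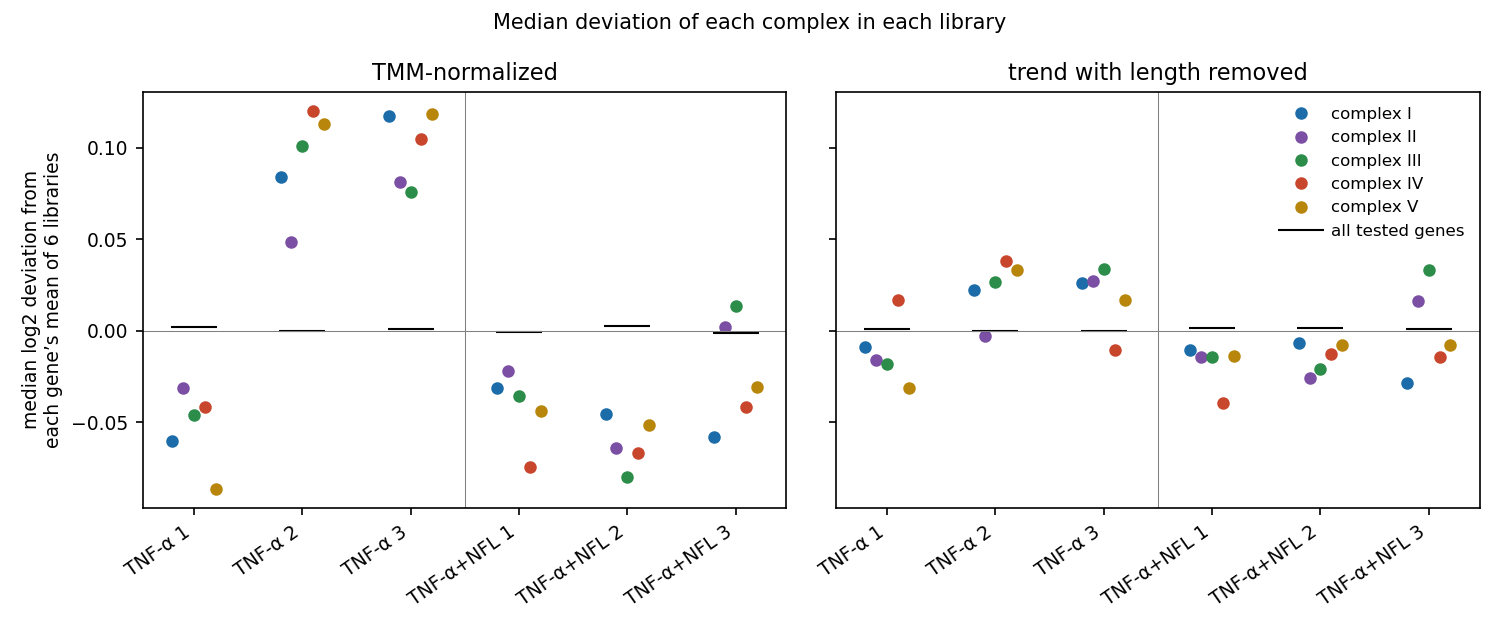
Median log2 deviation of the tested members of each complex from each gene's mean over the 6 libraries, by library, with TMM scaling (left) and after the trend with transcript length was removed from each library (right). At left, TNF-α replicates 2 and 3 lie above 0 in every complex and TNF-α replicate 1 lies below 0, and at right all medians are within 0.04 of 0.

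Without TNF-α replicate 1, edgeR called 34 of 90 members lower at an adjusted p below 0.05, where 3.51% of all genes tested in that fit were. They were 12 of 43 tested genes of complex I, 0 of 8 of complex II, 3 of 8 of complex III, 7 of 15 of complex IV and 12 of 16 of complex V. The median of the members was -0.14. The smallest adjusted p in this fit was that of Atp5mc2, a gene of the ATP synthase c ring, at 0.00039, followed by Cox6a1 at 0.00040. Atp5mc2 had 151, 176 and 185 CPM in the TNF-α replicates and 149.98, 158 and 152 CPM in the TNF-α+NFL replicates, so that its TNF-α replicate 1 lay among the TNF-α+NFL values. Leaving out any other library gave 0 members past the threshold, whereas all 6 libraries gave 1. Why TNF-α replicate 1 stood apart was not tested.

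For most members the lower levels also followed transcript length. The members' transcripts were short, with a median effective length of 645 bases against 2420 bases over the tested genes with a length, and short transcripts of other genes were lower in the TNF-α+NFL libraries as well. Below 500 bases, the median log2 fold change was -0.12 in 26 members and -0.12 in 176 other tested genes. From 500 to 1000 bases it was -0.098 in 37 members and -0.071 in 906 other genes, and from 1000 to 2000 bases -0.050 in 23 members and -0.029 in 3404 other genes. From 2000 to 4000 bases it was -0.075 in 4 members and 0.0012 in 4572 other genes. With the trend removed the median of these 4 members was -0.067. Ndufs1, Ndufaf7 and Sdha then had -0.11, -0.092 and -0.043, and Ndufaf4 had 0.21. Above 4000 bases, where no member lay, the median as fitted was 0.033 in 2647 genes. The trend was present between replicates too. The other genes below 500 bases deviated by -0.067, 0.13 and 0.12 in TNF-α replicates 1, 2 and 3 and by -0.037, -0.074 and -0.058 in the TNF-α+NFL replicates. As in the members, TNF-α replicates 2 and 3 lay above 0 and the other 4 libraries below.

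**Figure D5:**
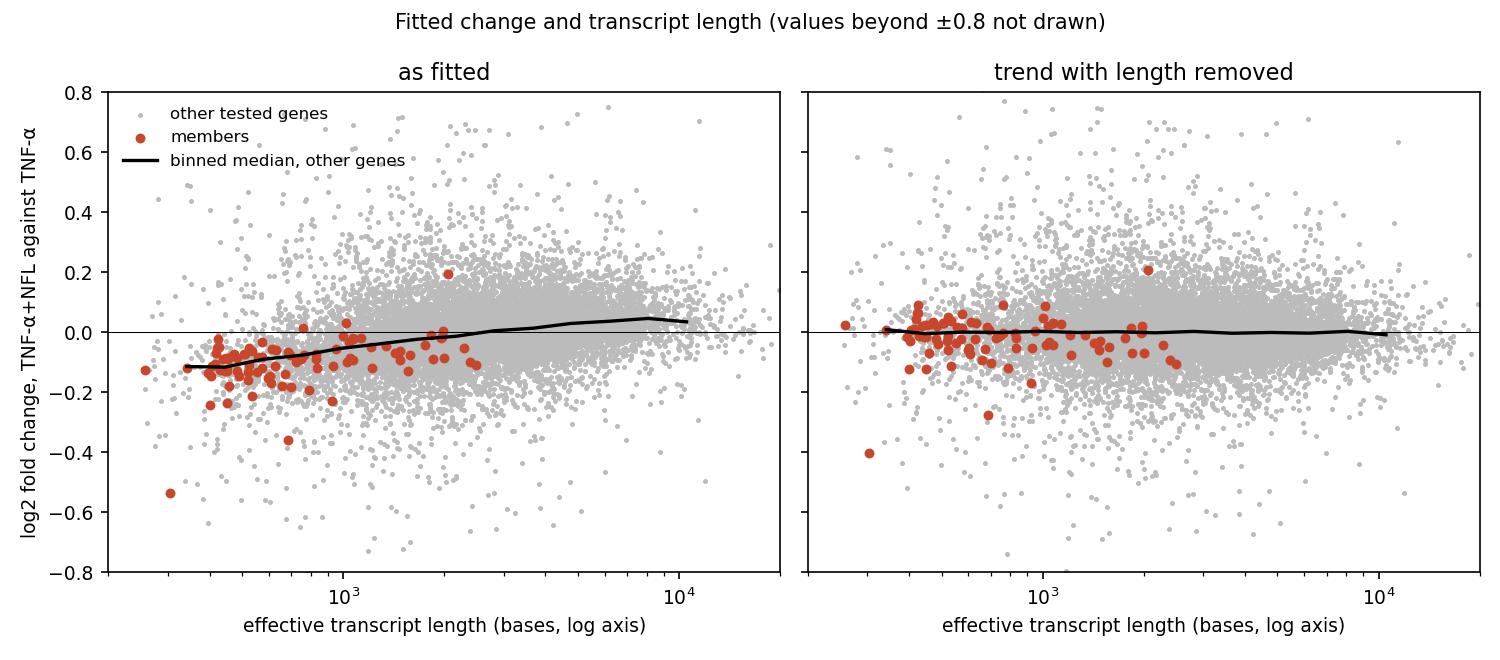
Fitted log2 fold change against effective transcript length (log axis) for members (red) and other tested genes (grey), as fitted (left) and after the trend with length was removed from each library (right). The black line is the binned median of the other genes, and the members' median is -0.089 at left and -0.013 at right.

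In each library the trend with length was fitted over all tested genes with a length, members included. Removing it thus moves the median of each length class towards 0 by construction. That of the other genes below 500 bases went from -0.12 to -0.0015. When each library's trend was removed, the member median came close to 0, and the 2 members past the threshold were the isoforms Ndufa4l2 and Cox4i2 of complex IV. The member median was -0.013, and 53 of 90 members were below 0, where 50.1% of all tested genes were. An unadjusted p under 0.05 was found for 8 lower members, where 5.4% of all tested genes were, and for 1 higher member, where 6.42% were. The higher one was Ndufaf4, at a log2 fold change of 0.21. The 8 lower members were Ndufa2, Ndufa8, Ndufb10, Ndufs1, Uqcrc1, Cox4i2, Ndufa4l2 and Atp5f1a. At the adjusted threshold edgeR called 2 members lower, where 0.634% of all tested genes were. They were Ndufa4l2, at a log2 fold change of -0.17 (SE 0.039, edgeR adjusted p = 0.034), and Cox4i2, at -0.28 (SE 0.068, edgeR adjusted p = 0.046). When the trend was removed and TNF-α replicate 1 was also left out, edgeR called 2 members lower at the adjusted threshold, where 1.04% of all genes tested in that fit were. They were Cox4i2, at -0.29 (edgeR adjusted p = 0.039), and Atp5f1a, at -0.10 (edgeR adjusted p = 0.044), while Ndufa4l2 had -0.13 (edgeR adjusted p = 0.056). The part of transcript length in the members' lower levels was not tested beyond these fits.

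Genes of neighbouring mitochondrial functions were set beside the members, and none of them passed the adjusted test. Cytochrome c and assembly factors outside the naming rule (40 tested) had a median of -0.033 on the log2 fold change scale, with 3 lower and 0 higher at an unadjusted p under 0.05. The 3 were 7.5% of the list, near the 5.45% of all tested genes that were lower at that p, while 5.66% were higher. Cycs, cytochrome c, had 88.2, 98.5 and 99.4 CPM in the TNF-α replicates and 102, 91.5 and 94.3 CPM in the TNF-α+NFL replicates, and Cyc1, the cytochrome c1 subunit of complex III, had 60.6, 68.8 and 71.8 CPM in the TNF-α replicates and 64.1, 68.2 and 70.2 CPM in the TNF-α+NFL replicates, with log2 fold changes of 0.0084 and 0.0092 and overlapping groups. The citric acid cycle and pyruvate dehydrogenase list (25 tested) had a median of -0.027, with 3 (12%) lower and 0 higher at that p, and the carriers and uncoupling proteins (19 tested) had -0.047, with 1 (5.26%) lower and 1 higher. The mitochondrially encoded subunits were not analysed here.

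The regulators of mitochondrial biogenesis (25 tested) had a median of 0.013, with 1 (4%) lower and 1 higher at an unadjusted p under 0.05. The lower one was Tfam, the factor that packages and transcribes mitochondrial DNA, with 16.4, 17.7 and 16.9 CPM in the TNF-α replicates and 14.9, 13.98 and 14.001 CPM in the TNF-α+NFL replicates. Its groups did not overlap, and its log2 fold change was -0.25 (SE 0.071, edgeR adjusted p = 0.17). Esrra, Nrf1 and Gabpa, which encode factors named for the motifs above, had log2 fold changes of 0.044, 0.084 and -0.039. Ppargc1a, the coactivator of mitochondrial biogenesis, was low, at 0.855, 0.606 and 0.419 CPM in the TNF-α replicates and 1.08, 0.848 and 0.666 CPM in the TNF-α+NFL replicates, and its log2 fold change of 0.49 had a standard error of 0.33. Ribosomal proteins, whose transcripts are also short, had medians below 0 as well. The cytosolic ribosomal list (92 tested, median length 583 bases) had a median of -0.12, with 43 (46.7%) lower and 0 higher at an unadjusted p under 0.05, and -0.038 after the trend with length was removed. The mitochondrial ribosomal list (75 tested, median length 949 bases) had a median of -0.066, with 10 (13.3%) lower and 0 higher, and -0.0084 after removal of the trend.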

How the data were processed

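Poly(A)-selected RNA of 3 TNF-α and 3 TNF-α+NFL libraries was read single-end. Per the submitters' processing notes, HISAT2 2.0.4, Bowtie2 2.2.5, RSEM 1.2.12 and Rnor_6.0 were used. The annotation is not given in the sources used here. The authors deposited estimated counts (not always whole), FPKM values, scaled to transcript length and mapped reads, and TPM values, which were not used. The study calls the libraries of a group independent biological replicates, while the labels do not name animals or cultures. Replicates differed beyond counting noise, by a chi-square over degrees of freedom. It was 10.3 and 15.7 for TNF-α replicate 1 against replicates 2 and 3, and 5.49 between replicates 2 and 3. Within the TNF-α+NFL group it was 2.87 to 3.23. The p-values set a group difference against the spread between these samples, with information on spread shared across genes.

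Rounded counts were compared in R 4.3.3 by edgeR 4.0.16 (filterByExpr, TMM, robust quasi-likelihood, two-sided, Benjamini-Hochberg over 13250 genes). Each SE was the log2 fold change over the square root of F. The effective length of a transcript was the count divided by FPKM and library total, taken where FPKM was at least 1, and was known for 11795 tested genes. A lowess trend of span 0.3 per library served to remove it, and genes without a length were left as they were. Alternatives were DESeq2 1.42.0 size factors and Wald test, limma 3.58.1 (voom, and log2(FPKM + 1)), other filters and thresholds, a replicate block, length trend removal and leaving out each library. 

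Members, lists and tests were chosen with earlier results of these data known. Genes named are those past the threshold, the 5 lower members of lowest p and the 4 members above 0 (up to 5 in each direction), the highest and lowest FPKM in each complex, core subunits, isoform pairs, Atp5if1 and 7 regulators and cytochromes. The values of 1 named gene are not reported here. Atp5mc2, Atp5mc3, Atp5mf, Ndufa1, Ndufa6, Ndufb10, Ndufs4, Cox7a2l, Cox7a2l2 and the untested members were named after their values were seen.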

Additional observations from a re-analysis of the deposited data

How the results depend on the processing

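The direction of the member median and the absence of a higher member at an adjusted p below 0.05 were the same under every alternative run, whereas the number of lower members and the size of the medians were not. Against 1 lower member, 2 were found with no filter on low counts, 0 with limma on log2(FPKM + 1), 0 with the replicate number as a block, 2 with the length trend removed, 2 when TNF-α replicate 1 was also left out, 0 at an adjusted p below 0.01 and 23 at an unadjusted p below 0.05. Leaving out 1 library gave 0 to 34, with 34 only without TNF-α replicate 1. Over all genes, against 54 higher and 27 lower, these were 84 and 48 with no filter, 95 and 53 with the DESeq2 Wald test, 3 and 3 with FPKM, 25 and 9 with the block, 154 and 84 with the length trend removed, 235 and 140 when TNF-α replicate 1 was also left out, 16 and 7 at an adjusted p below 0.01, and 750 and 722 at an unadjusted p below 0.05. Leaving out 1 library gave 5 to 460 higher and 0 to 470 lower, the highest without TNF-α replicate 1 and the lowest without TNF-α+NFL replicate 1. The cause of these differences was not tested.

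With the length trend removed, the median log2 fold change was -0.013 over the members, -0.018 in complex I, -0.0055 in complex II, 0.00998 in complex III, -0.017 in complex IV and -0.0047 in complex V, and when TNF-α replicate 1 was also left out, -0.020 over the members and -0.026, -0.023, 0.0037, -0.048 and -0.017 in complexes I to V. When 1 library was left out, it ran from -0.14 to -0.056 over the members, -0.14 to -0.054 in complex I, -0.067 to -0.015 in complex II, -0.15 to -0.025 in complex III, -0.18 to -0.070 in complex IV and -0.16 to -0.057 in complex V. The value nearest to 0 was in each case that without TNF-α replicate 3, and the one farthest from 0 that without TNF-α replicate 1, except in complex II, where it was that without TNF-α+NFL replicate 3.

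The replicate numbers do not pair the samples. Their deviations from the group means correlated at 0.043, -0.021 and 0.11 for numbers 1, 2 and 3, so the block stands for a number only.

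Of the members named by rule, none of which but Ndufa4l2 had passed, some changed sign. With the length trend removed these were Atp5f1c 0.047, Atp5if1 0.023, Atp5s 0.0018, Cox5a 0.060, Cox6b1 0.033, Cox8a 0.028, Ndufb4 0.065, Ndufs3 0.020, Sdhb 0.0050, Sdhc 0.028, Uqcrc2 0.013, Uqcrfs1 0.032 and Uqcrq 0.021. When TNF-α replicate 1 was also left out they were Atp5f1c 0.023, Atp5if1 0.018, Cox5a 0.083, Cox6b1 0.063, Cox8a 0.046, Ndufaf1 -0.011, Ndufb4 0.066, Ndufs3 0.031, Ndufs8 0.0067, Sdhc 0.0077, Sdhd 0.0099, Uqcrc2 0.0026, Uqcrfs1 0.036 and Uqcrq 0.054. Ndufaf1 had -0.0037 with limma-voom and -0.0013 with the block. When 1 library was left out, the values ran as follows, Atp5f1c -0.067 to 0.053, Atp5s -0.081 to 0.057, Cox5a -0.070 to 0.041, Ndufaf1 -0.11 to 0.058, Ndufaf6 -0.070 to 0.11, Ndufb4 -0.11 to 0.016, Ndufs3 -0.065 to 0.0075, Sdhaf4 -0.054 to 0.13, Sdhc -0.068 to 0.020, Uqcrc2 -0.032 to 0.026 and Uqcrq -0.14 to 0.0036. Of the members named after their values were seen, Cox7a2l2 had 0.012 with the length trend removed and up to 0.034 when 1 library was left out. Ndufs4 had up to 0.0070 when 1 library was left out. Ndufa1 had 0.011 when the length trend was removed and TNF-α replicate 1 was also left out. The fit without the length trend and TNF-α replicate 1 and the ACGTG motif were chosen after seeing the data. The median standard error of a member was 0.058 on the log2 scale, beside a member median of -0.089.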
